A study of Homo sapiens with 6 samples.

Results

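Peaks of 3 ChIP-seq lists were examined in a window of 1.5 Mb around CFTR on the long arm of chromosome 7 (hg19, chromosome 7, 116500000 to 118000000). CFTR spans 117120016 to 117308718, so the window reaches 620 kb before the gene and 691 kb after it. A peak was a member if its summit lay in the window, and no measured value was used to choose it. Of the 35687 peaks of the 3 lists, 6 met this rule: 2 of 9769 BRD8 peaks in Calu3, 1 of 9505 BRD8 peaks in 16HBE14o- and 3 of 16413 CTCF peaks in Calu3.

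The series mapped BRD8 by chromatin immunoprecipitation and sequencing in Calu3, a line from a human lung adenocarcinoma, and in 16HBE14o-, an immortalised human bronchial epithelial line, and mapped CTCF in Calu3. Each of the 3 experiments had 2 replicates, all 6 samples were untreated, and all were grown in DMEM with 10% FBS. BRD8 was precipitated with the same Active Motif antibody in both lines and CTCF with a Millipore antibody. The authors deposited 1 list for each experiment, so values of single replicates were not used here, no replicate error can be given, the sequencing depth is unknown, and intervals below cover counting error only. Each condition rests on 1 cell line, and peak lists hold no marker expression against which the lines could be checked.

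CFTR encodes the chloride and bicarbonate channel of the apical membrane of airway epithelium, whose loss causes cystic fibrosis. CTCF binds DNA at insulators through its zinc fingers and, with cohesin, anchors chromatin loops, and the CFTR domain is known as a stretch of chromatin bounded by CTCF sites on either side of the gene. BRD8 carries a bromodomain and belongs to the NuA4/TIP60 complex, which acetylates histones and exchanges histone variants. Calu3 cells are widely used as a model of CFTR-expressing airway epithelium.

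In the RefSeq gene order, the protein-coding genes before CFTR are, from the nearest outward, ASZ1, WNT2, ST7, CAPZA2 and MET, and those after it are CTTNBP2, LSM8 and ANKRD7. ASZ1 encodes a germ cell protein of the piRNA pathway, and WNT2 a secreted Wnt ligand that in mice is needed, with Wnt2b, to specify the lung. CTTNBP2 binds cortactin in neurons, CAPZA2 is a subunit of the actin capping protein, and MET is the receptor of hepatocyte growth factor. The gene table used here is of GRCh38, so that the positions of these genes on hg19 were not used and no peak is assigned to ASZ1, WNT2 or CTTNBP2.

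No listed peak of either protein lay in CFTR. None lay within 100 kb of the gene, and none lay between its end and the end of the window. All 6 peaks lay before CFTR, at 3 sites in band 7q31.2 that are numbered here by position. Site 1, 549 kb before the CFTR start, was listed for BRD8 in Calu3, BRD8 in 16HBE14o- and CTCF in Calu3. Site 2, 360 kb before the start, was listed for BRD8 and CTCF in Calu3 and not for BRD8 in 16HBE14o-. Site 3, 267 kb before the start, was listed for CTCF in Calu3 alone. The lists therefore do not mark a CTCF site on both sides of CFTR within the window, and domain boundaries cannot be placed from them. The lists hold only peaks that passed the authors' threshold, so weaker BRD8 or CTCF binding at and around CFTR cannot be judged from them. Whether the copies of the lists used here hold every peak of this region could not be determined, so the counts of 0 describe these copies only.

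**Figure D1:**
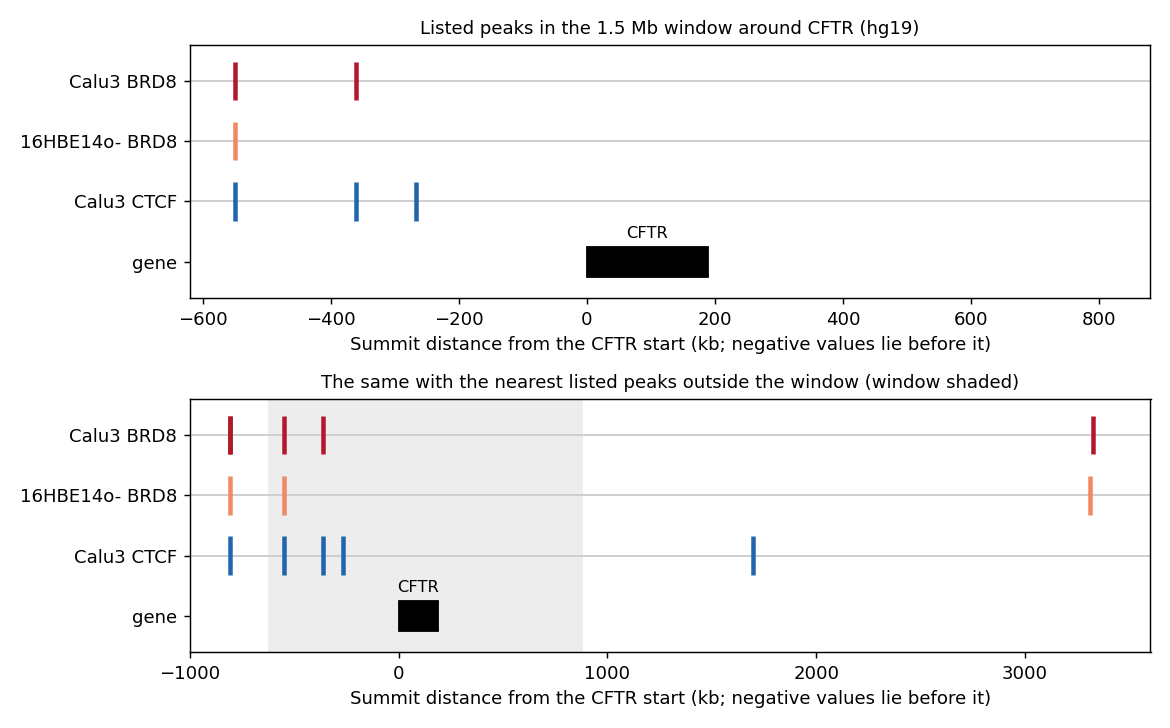
Summit positions of listed peaks as distance from the CFTR start (kb, horizontal axis) for BRD8 in Calu3, BRD8 in 16HBE14o- and CTCF in Calu3, one row each, with CFTR as a black box. The upper panel shows the 1.5 Mb window, in which all 6 peaks lie to the left of CFTR; the lower panel adds the nearest listed peaks outside the shaded window, of which those to the right begin 1.51 Mb after the CFTR end.

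The CFTR promoter is shown because the distances above are counted from the start of this gene, and no listed peak lay near it. Whether the annotated RefSeq start is the same base as the hg19 start used for the distances was not checked. The RefSeq promoter of CFTR (GRCh38.p14, chr7:117479775-117480074, plus strand, 250 bases before to 50 bases after the annotated start) is printed 5′ to 3′, with the matches of a search on both strands in capitals. Its coordinates belong to another build than the peaks and cannot be set beside them.
CFTR promoter: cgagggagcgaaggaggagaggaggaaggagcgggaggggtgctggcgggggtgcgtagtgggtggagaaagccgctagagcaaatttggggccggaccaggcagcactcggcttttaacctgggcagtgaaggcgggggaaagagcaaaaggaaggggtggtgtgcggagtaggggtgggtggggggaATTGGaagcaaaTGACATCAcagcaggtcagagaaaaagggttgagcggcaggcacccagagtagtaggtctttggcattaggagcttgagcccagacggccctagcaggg
The capitals mark a CCAAT box on the opposite strand, which begins 61 bases before the annotated start, and the variant cAMP response element TGACATCA, which begins 49 bases before it. The 2 matches do not overlap. CCAAT was present on either strand in 34.6% of the 35116 promoters in the table and TGACATCA in 2.61%. The search for the CTCF core CCNNNAGNNGGC found no match in this window, nor in those of WNT2, ASZ1 and CTTNBP2, against 10.6% of all promoters, and the search for TATAAA found none in the same promoters, against 11.5% of all. These letters describe the windows only, and nothing about binding was read from them.

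The promoters of the 4 genes differed in base composition. That of CFTR held 12 CpG and 60.7% G and C. That of WNT2 held 43 CpG at 72.7% G and C, and that of ASZ1 held 29 CpG at 67.0%. CTTNBP2 has 2 promoters in the table, with 53 CpG at 77.7% and 13 CpG at 62.3%. The median of all promoters was 14 CpG at 58.7% G and C, so the CFTR promoter lay near the middle, whereas the WNT2 promoter and the CTTNBP2 promoter of 53 CpG had more CpG than 95.0% and 99.4% of all promoters. No value of the peak lists could be set beside these promoters except for CFTR, where the nearest listed peak was 267 kb away.

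Site 1 was listed in all 3 experiments. The BRD8 peak in Calu3 lay at chromosome 7, 116570469 to 116570944, with a signal of 26.3 and rank 6710 of 9769. The BRD8 peak in 16HBE14o- lay at 116570538 to 116570761, with a signal of 36.0 and rank 2602 of 9505. The CTCF peak lay at 116570499 to 116570788, with a signal of 33.5 and rank 8436 of 16413. The signal is the authors' own value per peak, and since its scale may differ between lists it was used only to rank peaks within a list. As a percentile in which 100 is the strongest peak, BRD8 stood at 31.3 in Calu3 and at 72.6 in 16HBE14o-, and CTCF stood at 48.6. BRD8 thus lay in the weaker part of the Calu3 list and in the stronger part of the 16HBE14o- list, with CTCF close to the middle of its own.

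Site 2 was listed in Calu3 alone. Its BRD8 peak lay at chromosome 7, 116759462 to 116759937, with a signal of 29.0, rank 5802 and percentile 40.6. Its CTCF peak lay at 116759566 to 116759855, with a signal of 22.7, rank 13002 and percentile 20.8. BRD8 stood higher in its list than CTCF did, the reverse of site 1 in the same line. The nearest 16HBE14o- BRD8 summit was 189 kb from the Calu3 BRD8 summit, and it was the one at site 1.

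Site 3 was a CTCF peak without BRD8 in either line. It lay at chromosome 7, 116853097 to 116853386, with a signal of 25.8, rank 11382 and percentile 30.7. Its rank was above that of the CTCF peak at site 2, which had BRD8, and below that of site 1. The nearest BRD8 summit was 93.5 kb away in Calu3 and 283 kb away in 16HBE14o-. Of the 6 peaks, the 16HBE14o- BRD8 peak was the only one in the upper 50% of its list.

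**Figure D2:**
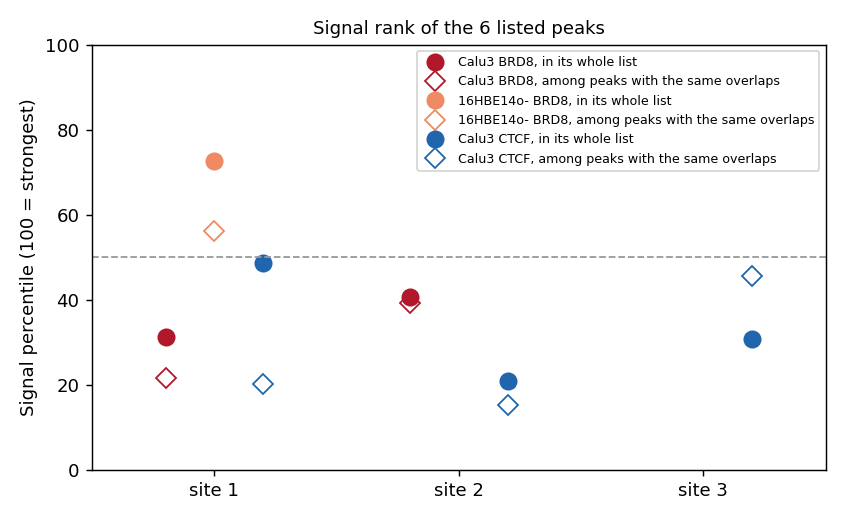
Signal percentile of each of the 6 peaks (vertical axis, 100 is the strongest) at the 3 sites, within its whole list (filled circles) and among peaks of that list with the same overlaps in the other lists (open diamonds). The 16HBE14o- BRD8 peak at site 1, at 72.6 and 56.2, is the only one above 50 on either measure.

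The peaks were also ranked among those of their list that had the same overlaps. At site 1, where all 3 lists had a peak, BRD8 in Calu3 stood at percentile 21.6 of 4234 such peaks and BRD8 in 16HBE14o- at 56.2 of 3543. CTCF at site 1 stood at 20.2 of 3570 CTCF peaks with BRD8 in both lines, whose median signal was 80.1, against 33.5 here. At site 2, BRD8 stood at 39.2 of 2649 Calu3 peaks with CTCF only, and CTCF at 15.2 of 2352 with BRD8 in Calu3 only. At site 3, CTCF stood at 45.5 of 7823 CTCF peaks without BRD8, whose median signal was 27.1. All 3 CTCF peaks therefore lay below the median of their class.

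The authors' score, which runs from 540 to 1000 in each list, was at its maximum for BRD8 in 16HBE14o- and for CTCF at site 1. This maximum is common, being held by 51.2% of the 16HBE14o- list and 62.2% of the CTCF list. The other 4 peaks had scores of 650 and 598 for BRD8 in Calu3 at sites 1 and 2, and of 627 and 693 for CTCF at sites 2 and 3. Lower scores than these were held by 17.4% and 9.69% of the Calu3 BRD8 list and by 9.83% and 16.1% of the CTCF list.

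The summits at sites 1 and 2 lay close together. At site 1 the BRD8 summit of Calu3 was at 116570707, that of 16HBE14o- at 116570650 and the CTCF summit at 116570644. The Calu3 BRD8 summit was 63 bp and the 16HBE14o- BRD8 summit 6 bp from the CTCF summit, and the 2 BRD8 summits were 57 bp apart. At site 2 the Calu3 BRD8 summit at 116759700 was 11 bp from the CTCF summit at 116759711. Over all overlapping pairs the median was 37 bp for Calu3 BRD8 with CTCF, and 67.5% of 6883 pairs were at least as close as at site 1 and 18.8% at least as close as at site 2. For 16HBE14o- BRD8 with CTCF the median was 19 bp, and 19.4% of 6204 pairs were at least as close as at site 1. For BRD8 in Calu3 with BRD8 in 16HBE14o- it was 35 bp, and 66.6% of 4890 pairs were at least as close.

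The peaks had the usual width of their list: 476 bp for BRD8 in Calu3, 224 bp for BRD8 in 16HBE14o- and 290 bp for CTCF. Each summit lay at the middle of its peak, so the overlaps that follow restate these widths and the summit distances. At both sites the CTCF peak lay wholly inside the Calu3 BRD8 peak, an overlap of 290 bp. At site 1 the 16HBE14o- BRD8 peak lay wholly inside both others, and it covered 77.2% of the CTCF peak and 47.1% of the Calu3 BRD8 peak. Because of that last share, a reciprocal overlap of at least 50% did not count the site as shared between the lines. Peaks of 476 and 224 bp cannot pass this rule at any site, so the outcome was fixed by the widths. Those widths were held by 94.2% of the Calu3 BRD8 list and 99.97% of the 16HBE14o- BRD8 list.

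**Figure D3:**
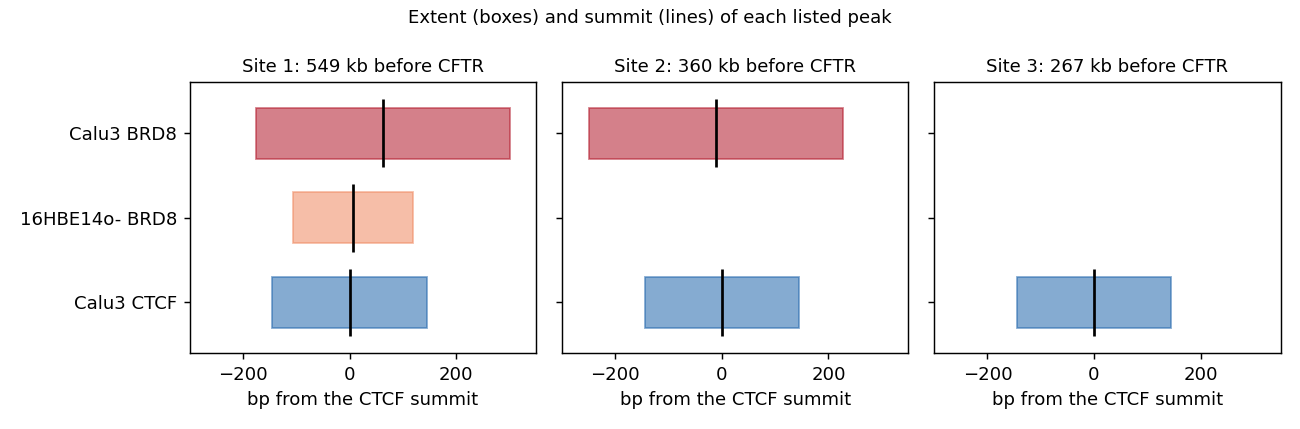
Extent (boxes) and summit (black lines) of the listed peaks at the 3 sites, as distance in bp from the CTCF summit, with BRD8 in Calu3, BRD8 in 16HBE14o- and CTCF in Calu3 from top to bottom. All 3 lists have a peak at site 1, both Calu3 lists at site 2, and CTCF alone has one at site 3.

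The overlap of BRD8 with CTCF was compared with that of whole lists. In the window, 2 of 2 BRD8 peaks in Calu3 overlapped a CTCF peak by at least 1 bp (100%, 95% exact Clopper-Pearson interval 15.8 to 100%), against 70.5% of the whole Calu3 list. CTCF was not mapped in 16HBE14o-, whose BRD8 peaks were set against the CTCF peaks of Calu3. Of these, 1 of 1 in the window overlapped a Calu3 CTCF peak (100%, 2.5 to 100%), against 65.3% of the whole 16HBE14o- BRD8 list. Between the lines, 1 of 2 Calu3 BRD8 peaks in the window overlapped a 16HBE14o- BRD8 peak (50%, 1.26 to 98.7%), against 50.1% of the list, and 1 of 1 in the other direction (100%, 2.5 to 100%), against 43.4%. Of the 3 CTCF peaks in the window, 2 carried BRD8 in Calu3 (66.7%, 9.43 to 99.2%), against 36.1% of all CTCF peaks, and 1 carried BRD8 in 16HBE14o- (33.3%, 0.840 to 90.6%), against 38.0%. With 1 to 3 peaks, each of these intervals would hold the value of the whole list whatever the outcome. A difference from the whole list was therefore not detectable, and likeness to it cannot be read from the intervals.

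At site 1 the rank of BRD8 differed between the lines. The percentile was lower in Calu3, with a difference (Calu3 minus 16HBE14o-) of -41.3 points. Over the 4890 Calu3 BRD8 peaks that overlapped a 16HBE14o- peak the median difference was -0.67 points, with quartiles of -26.5 and 20.7, and 16.0% had one at least as low. On chromosome 7 the median was 5.44 points over 289 peaks, and 11.4% had one at least as low. Each Calu3 peak was paired with the overlapping 16HBE14o- peak of highest percentile, and Calu3 peaks that overlapped each other were counted singly. The 4890 Calu3 peaks thus met only 4127 16HBE14o- peaks. Merging overlapping peaks moved the median percentile of the window's Calu3 BRD8 peaks from 36.0 to 25.8 and left that of 16HBE14o- at 72.6. The shares of pairs were not recomputed with merged peaks. With 1 list for each line, the difference at site 1 has no replicate check.

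The order of BRD8 and CTCF ranks was mixed. The lists differ in length, with 9769 BRD8 peaks and 16413 CTCF peaks in Calu3, and their thresholds are not known. Equal percentiles in 2 lists therefore need not mean equal binding. In Calu3, the BRD8 percentile minus the CTCF percentile was -17.3 points at site 1 and 19.8 points at site 2. The median over 6883 overlapping pairs was -5.55 points, with quartiles of -31.5 and 15.6, and BRD8 stood higher than CTCF in 41.7% of them. For BRD8 in 16HBE14o- at site 1 the difference from CTCF in Calu3 was 24.0 points. Of 6204 such pairs, 14.8% had a difference at least as high, as had 6.88% of the 320 on chromosome 7. Pairs were formed as for BRD8 between the lines, with overlapping peaks of a list counted singly.

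**Figure D4:**
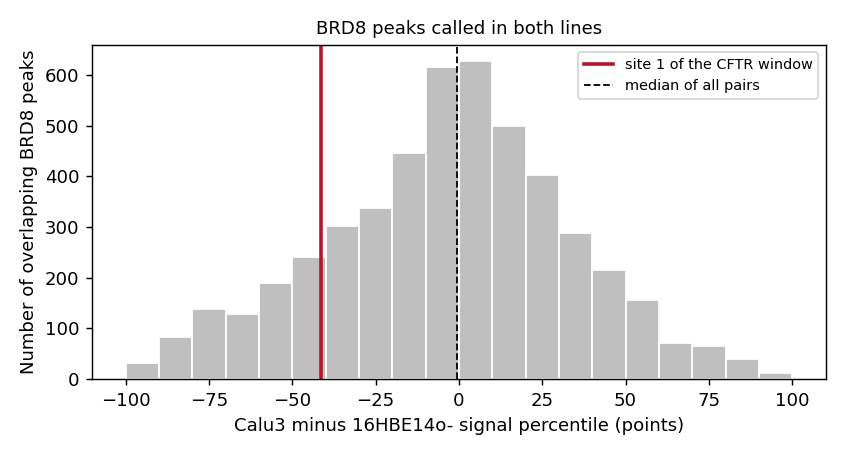
Histogram of the Calu3 minus the 16HBE14o- signal percentile (horizontal axis, points) over the 4890 Calu3 BRD8 peaks that overlap a 16HBE14o- peak (vertical axis, number of peaks in steps of 10 points). The red line marks site 1 at -41.3 points and the dashed line the median of -0.67; 16.0% of the peaks lie at or to the left of the red line.

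In the copies of the lists used here, the window held few peaks per Mb, and its densities and counts hold only as far as these copies are complete around CFTR. BRD8 peaks numbered 1.33 per Mb in the window in Calu3, against 4.07 on chromosome 7 and 3.22 over the genome. In 16HBE14o- they numbered 0.667 per Mb, against 2.74 and 3.13. CTCF peaks numbered 2.0 per Mb in the window, against 6.11 and 5.41. Peaks are spread unevenly over the genome, and such numbers were not rare: of 2018 tiles of 1.5 Mb, 54.7% held at most 2 BRD8 peaks in Calu3, 40.2% at most 1 in 16HBE14o- and 42.7% at most 3 CTCF peaks. Some tiles lie in gaps of the assembly. Among the 1721 tiles with a peak of any list the shares were 46.8%, 29.9% and 32.8%. Tiles with as few peaks as the CFTR window were thus common in each list.

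**Figure D5:**
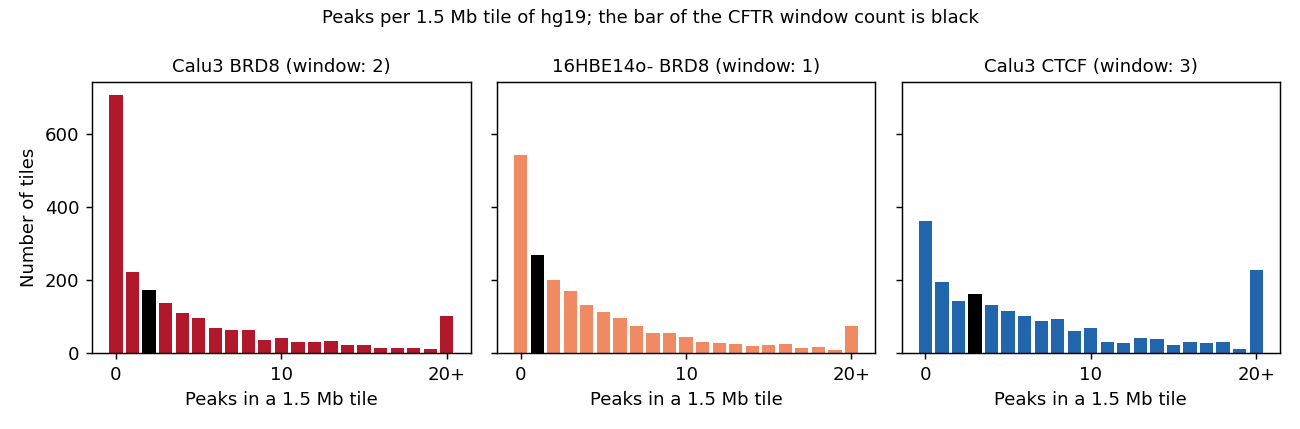
Number of 1.5 Mb tiles of hg19 (vertical axis) by the number of listed peaks in them (horizontal axis, 20 or more in the last bar) for BRD8 in Calu3, BRD8 in 16HBE14o- and CTCF in Calu3. The black bar is the count found in the CFTR window, which is 2, 1 and 3, and it lies among the well-filled bars at the left of each plot.

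In each list as used here, CFTR lay in a long stretch without listed peaks, whose length has the same limit. For CTCF the stretch ran from site 3 to a summit 1.51 Mb after the CFTR end, 1.96 Mb in all, and it held no BRD8 summit of either line. For BRD8 in Calu3 it ran from site 2 for 3.69 Mb, and for BRD8 in 16HBE14o- from site 1 for 3.86 Mb. These were stretch 6 by length of 647 on chromosome 7 in the Calu3 BRD8 list, 6 of 435 in the 16HBE14o- BRD8 list and 8 of 972 in the CTCF list. A base picked evenly along the genome is more likely to lie in a long stretch than in a short one, so the length of genome involved is also given. Gene positions were not used, so these lengths do not say how common such a stretch is around a gene. Of the length between neighbouring summits, 30.2% in the Calu3 BRD8 list, 21.9% in the 16HBE14o- BRD8 list and 24.5% in the CTCF list lay in stretches at least as long. Stretches that cross centromeres or other gaps of the assembly were kept in these shares and in the order on chromosome 7. The shares may therefore be too high, and the CFTR stretch may look more common than it is.

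The peaks that ended these stretches on the far side were separate sites. The CTCF peak (chromosome 7, 118816131 to 118816420) had a signal of 19.2 and percentile 10.3 and overlapped no BRD8 peak. The next BRD8 peak in Calu3 (120445910 to 120446385, percentile 31.6) lay 3.14 Mb after the CFTR end and that in 16HBE14o- (120432126 to 120432349, percentile 64.2) lay 3.12 Mb after it. Neither overlapped the other or a CTCF peak.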

How the data were processed

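BRD8 in Calu3, BRD8 in 16HBE14o- and CTCF in Calu3 were mapped in 2 replicates each. The authors combined the 2 replicates of an experiment into 1 peak list with the irreproducible discovery rate (IDR), a filter for peaks of like rank in both, per the series' design text. Per the file headers, coordinates are those of hg19. Aligner, peak caller, control library and threshold are not given in the sources used here. Ranks and percentiles within each list were taken from the deposited signal column. The deposited score column is quoted as such, and a second deposited score, in the column for q-values, was not reported. Summits came from the final deposited column, which is another kind of number, an offset in bp from the peak start. Depth is unknown.

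The members and gene lists were chosen with earlier results of these data known. All 6 peaks are described in full, by the rule that names each peak within 100 kb of CFTR and the 3 of highest signal in each list. Positions are counted from 1. An overlap of 2 peaks needed at least 1 bp and was computed with pandas 2.3.3 and numpy 2.4.6 (Python 3.11.15); bedtools 2.31.1 gave the same counts. Exact intervals came from scipy 1.17.1. The overlap code was tested on simulated data. No test across samples was possible, so shares, ranks and distances stand beside those of whole lists. Chromosome lengths came from GenomeInfoDb 1.38.1, bands from circlize 0.4.16, gene order and promoter sequences from RefSeq (GRCh38.p14), and figures from matplotlib 3.10.9. Peak sequences were not analysed here, since they need the genome of the peaks' build.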

Additional observations from a re-analysis of the deposited data

How the results depend on the processing

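Of 82 values recomputed under alternatives, 63 stayed within a set tolerance and 19 did not. The tolerance for a share was its 95% exact interval. It was 1.5 times for a count or a distance to CFTR, and the range of the values for summit distances. For a median percentile it was the 95% exact interval of that share of the whole list, which is narrow, so that small shifts count as changes. For shares in the window it was wide, since they rest on 1 to 3 peaks, so that large shifts could count as unchanged. A fall from 100% to 50% of Calu3 BRD8 peaks overlapping CTCF, with lists of equal length, counted as unchanged. The 63 is therefore no measure of stability. With the upper 50% of each list by signal, 0 BRD8 peaks in Calu3 and 0 CTCF peaks remained in the window, so that 0% of 16HBE14o- BRD8 overlapped CTCF or Calu3 BRD8 there. The nearest BRD8 peak in Calu3 then lay 808 kb from the CFTR start and 997 kb from its end, and so did the nearest CTCF peak (808 and 997 kb). With lists cut to 9505 peaks, 1 CTCF peak remained, with BRD8 in both lines (100% and 100%), and 1 of 2 Calu3 BRD8 peaks overlapped CTCF. With a reciprocal overlap of at least 50%, the share of BRD8 peaks shared between the lines was 0% in Calu3 and 0% in 16HBE14o-. Peaks of the usual widths, 476 and 224 bp, cannot pass that rule, so these values say nothing about sharing. With summits within 100 bp, or with peaks set to 200 bp, the shares stayed at 50% in Calu3 and 100% in 16HBE14o-. With overlapping peaks merged, the median percentile of the window peaks was 25.8 for BRD8 in Calu3 and 29.2 for CTCF, against 36.0 and 30.7 as deposited. With a window 250 kb wider on each side there were 4 BRD8 peaks in Calu3 and 2 in 16HBE14o-, and the median percentile was 60.7 for BRD8 in 16HBE14o- and 39.6 for CTCF. The planned search for the CTCF motif in peaks was not run, for want of a genome of the peaks' build. No paired analysis was possible because each list pools its 2 replicates, and for the same reason no replicate could be left out.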

Other observations

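One further site lay in the 250 kb on either side of the window, 188 kb before it and 808 kb before the CFTR start. It was listed for all 3 experiments, as was site 1. BRD8 in Calu3 had a peak at chromosome 7, 116311659 to 116312134, with a signal of 51.9 and percentile 83.2, and a weaker one that overlapped it, at 116311858 to 116312333, with a signal of 15.0 and percentile 10.9. BRD8 in 16HBE14o- had a peak at 116311796 to 116312019, with a signal of 28.9 and percentile 48.7. CTCF had one at 116311839 to 116312043, with a signal of 128 and percentile 85.5. Both Calu3 BRD8 peaks overlapped the 16HBE14o- peak. The stronger stood above it by percentile and the weaker below it, whereas at site 1 the only Calu3 BRD8 peak stood below, at 31.3 against 72.6 in 16HBE14o-. The difference between the sites was not tested. No peak of any list lay in the 250 kb after the window.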
